A study of Mus musculus with 6 samples.

Results

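The genes described here are 31 general markers of macrophages and monocytes, set out by name and followed across 6 arrays of mouse skin and skin tumours. Each gene was read from its probe with the highest mean intensity, and a probe counted as detected where its detection p was under 0.01 on at least 1 array. Of the 31 genes, 29 had a probe named to them and 26 were detected, among 11999 detected genes of 19057 with a named probe. No probe was named to Cd68 or Spp1 here, and the probes of Marco, Itgam and Ccr2 were not detected on any array.

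The mice were of a C57BL6/129Sv background and 8 weeks old when shaved, and total RNA of their back skin, or of tumours in it, went onto one-colour bead arrays with 1 sample each. SKO mice are deficient in STING (Sting -/-), the adaptor that passes on the sensing of cytosolic DNA, and WT mice are Sting +/+. The labels limit the loss of STING to no cell type. SKO DMBA skin (2 arrays) and WT DMBA tumours (2 arrays) had 10 µg of DMBA, a carcinogenic hydrocarbon, painted on each week in 100 µl of acetone over 18 to 20 weeks. SKO acetone skin (1 array) and WT acetone skin (1 array) had 100 µl of acetone alone. After DMBA the WT samples were tumours while the SKO samples were skin, and a genotype effect and a tissue effect cannot be told apart where these groups are compared.

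Macrophages are phagocytes that in skin lie mostly in the dermis, seeded before birth and topped up by blood monocytes. Most depend on the receptor Csf1r and its ligands CSF1 and IL-34. They take up particles coated with antibody through Fc receptors, which signal through adaptors that carry an ITAM tyrosine motif, and they are a main source of the complement protein C1q. In RNA from whole tissue, fewer cells of a type and less RNA per cell cannot be told apart.

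Between 35.5% and 43.3% of 45281 probes were detected on an array. Tumour 1 stood apart. It had the lowest share of detected probes, and its correlation with the skin arrays lay between 0.766 and 0.819 over all genes tested, against 0.872 to 0.938 for tumour 2. All 26 macrophage genes were detected in both SKO DMBA skin arrays, in tumour 2 and in WT acetone skin. Tumour 1 did not detect Ptprc, Fcgr1 or Msr1, and SKO acetone skin did not detect Msr1. Of the genes that define macrophages, Adgre1 and Csf1r were detected on all 6 arrays and Fcgr1 on 5.

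Several members lie side by side in the genome. C1qa, C1qc and C1qb, which encode the chains of C1q, are consecutive genes on chromosome 4, and Lyz1 and Lyz2, which encode the near-identical mouse lysozymes, are consecutive on chromosome 10. RefSeq's promoter table (GRCm38.p6, 250 bases before to 50 after each gene's start) held 28 promoters of 23 of the 31 genes. Those of C1qb, C1qc, Lyz1 and Lyz2 are shown because these neighbours were among the 6 genes with the largest fitted difference between SKO DMBA skin and the tumours (C1qa was not), and because each holds the purine-rich word AGGAAGT of the kind bound by the myeloid factor PU.1. Capitals mark that word, which reads ACTTCCT here because it lies on the opposite strand in all of them. All are on the minus strand and written 5′ to 3′ in the direction of transcription, at chr4:136886151-136886450 for C1qb, chr4:136892865-136893164 for C1qc, chr10:117292819-117293118 for Lyz1 and chr10:117282223-117282522 for Lyz2.
C1qb: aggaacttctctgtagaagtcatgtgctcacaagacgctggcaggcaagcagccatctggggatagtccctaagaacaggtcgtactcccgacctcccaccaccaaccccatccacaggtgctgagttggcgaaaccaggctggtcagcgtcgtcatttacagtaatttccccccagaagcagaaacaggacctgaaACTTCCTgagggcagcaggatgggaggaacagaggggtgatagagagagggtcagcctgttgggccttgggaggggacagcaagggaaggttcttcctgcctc
C1qc: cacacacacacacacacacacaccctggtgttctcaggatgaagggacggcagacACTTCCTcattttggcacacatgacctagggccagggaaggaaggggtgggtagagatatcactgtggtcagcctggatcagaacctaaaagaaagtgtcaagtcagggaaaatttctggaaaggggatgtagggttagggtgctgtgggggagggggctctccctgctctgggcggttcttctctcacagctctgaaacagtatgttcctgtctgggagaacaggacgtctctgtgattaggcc
Lyz1: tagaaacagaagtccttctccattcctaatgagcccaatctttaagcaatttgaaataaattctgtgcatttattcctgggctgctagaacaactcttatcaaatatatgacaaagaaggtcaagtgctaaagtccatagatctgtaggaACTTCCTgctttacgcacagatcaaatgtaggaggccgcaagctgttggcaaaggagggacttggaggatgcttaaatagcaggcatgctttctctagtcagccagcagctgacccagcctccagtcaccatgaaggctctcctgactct
Lyz2: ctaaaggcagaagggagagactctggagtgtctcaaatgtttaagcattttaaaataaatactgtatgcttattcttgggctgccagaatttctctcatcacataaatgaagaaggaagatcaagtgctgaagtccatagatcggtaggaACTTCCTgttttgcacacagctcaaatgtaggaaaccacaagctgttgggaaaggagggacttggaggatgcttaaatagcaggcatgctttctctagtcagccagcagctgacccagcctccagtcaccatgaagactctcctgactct
The word began 53 bases before the start of C1qb, 195 before that of C1qc and 100 before those of both Lyz1 and Lyz2, counted from its upstream end. Aligned from end to end, the Lyz1 and Lyz2 promoters were identical at 249 of 298 aligned bases (83.6%), and those of C1qb and C1qc at 156 of 256 (60.9%). On either strand, AGGAAGT stood in 9 of the 28 promoters (32.1%), of the 8 genes C1qb, C1qc, Ctss, Fcgr1, Lyz1, Lyz2, Ptprc and Spp1, against 9.35% of 32851 promoters in the table. The shorter word GAGGAA, which can overlap AGGAAGT, stood in 17 (60.7%) against 28.3%. The AP-1 words TGACTCA or TGAGTCA, which are each other read on the opposite strand, stood in 2 (7.14%, Cd68 and Gpnmb) against 5.2%. The promoters of Ptprc, Fcgr3 and Clec7a include overlapping windows of the same gene, so some sequence was counted more than once. A match is a word in the sequence and does not show binding.

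Across the 6 arrays most macrophage genes had the same array at the top and the same at the bottom. The first SKO DMBA skin array was the highest for 24 of 26 genes, a position it held for 15.4% of all 11999 genes, and the exceptions were Gpnmb and Msr1. Tumour 1 was the lowest for 22 of 26, against 33.1% of all genes, the exceptions being Cd14, Msr1, Clec7a and Cx3cr1. Tumour 2 lay above tumour 1 by over 2-fold for 21 of 26 genes, against 10.4% of all genes. The summed normalized intensity of the 26 genes was 101000 and 63940 in SKO DMBA skin, 9436 and 36750 in WT DMBA tumours 1 and 2, 44720 in SKO acetone skin and 49830 in WT acetone skin. The sum is weighted to the brightest genes, and Lyz1 was the brightest on every array but tumour 1. The median log2 intensity of the 26 genes was 10.54 and 10.19 in SKO DMBA skin and 7.90 and 9.14 in the tumours. It was 9.38 in SKO acetone skin and 9.09 in WT acetone skin. Tumour 2 and SKO acetone skin were thus below WT acetone skin in the sum but above it in the median.

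**Figure D1:**
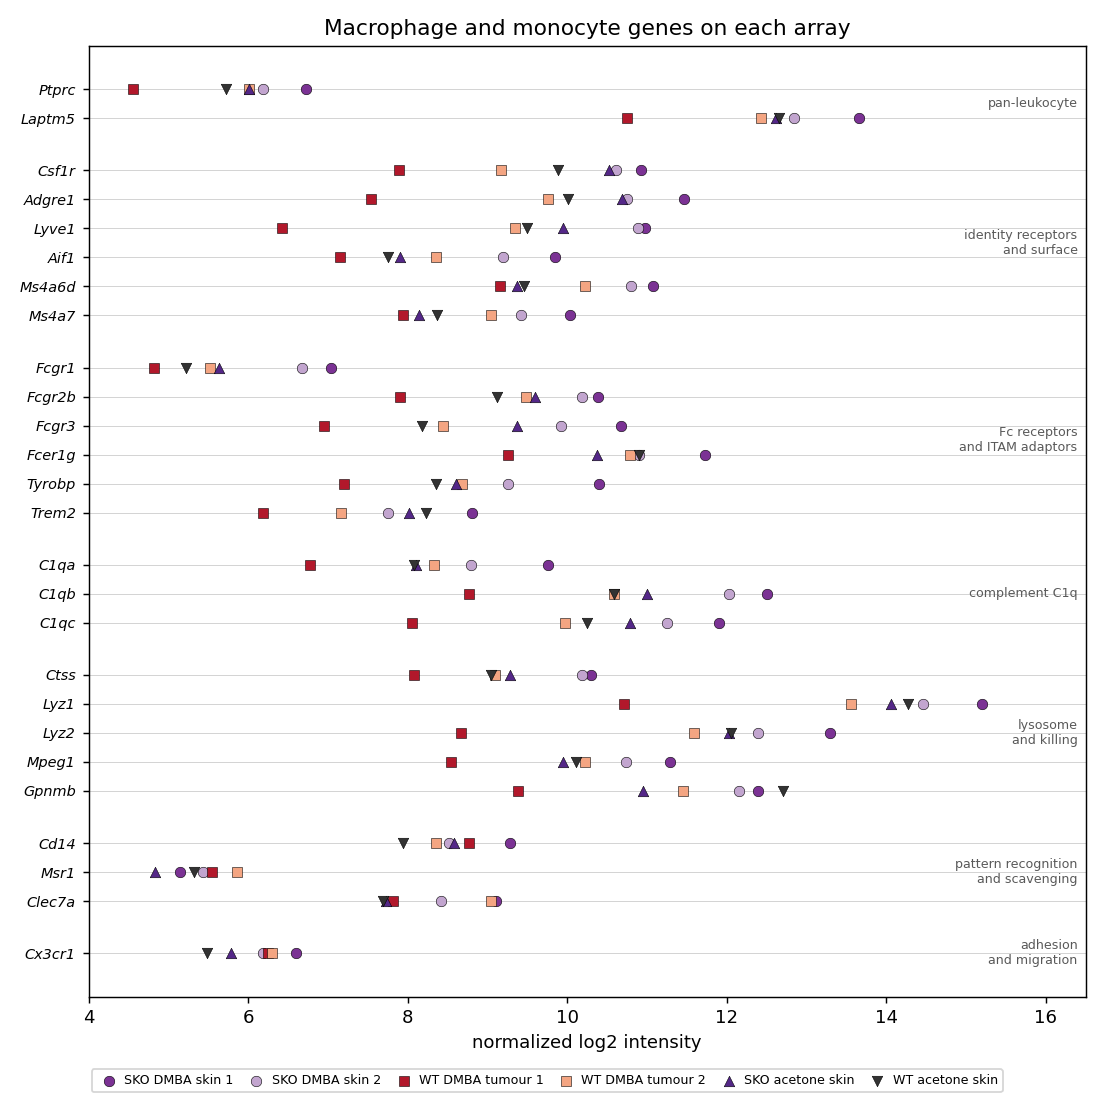
Normalized log2 intensity (horizontal axis) of the 26 detected macrophage and monocyte genes, grouped by role, with 1 marker for each of the 6 arrays. For most genes the tumour 1 marker lies far to the left and SKO DMBA skin 1 to the right, while Cd14, Msr1, Clec7a and Cx3cr1 span the shortest distances.

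Ptprc encodes CD45, the phosphatase of all white blood cells, and Laptm5 a lysosomal membrane protein of blood cells. Laptm5 had deposited intensities of 12683 and 6894 in SKO DMBA skin, 1531 and 5432 in WT DMBA tumours 1 and 2, 6669 in SKO acetone skin and 6618 in WT acetone skin. Both tumours were below every skin array, tumour 1 by far and tumour 2 by little. Ptprc was dim, at 178 and 136 in SKO DMBA skin, 72.4 and 114 in WT DMBA tumours 1 and 2, 128 in SKO acetone skin and 113 in WT acetone skin, and tumour 1 did not detect it. Tumour 2 lay among the acetone skin arrays for Ptprc.

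Csf1r is the receptor for CSF1 and IL-34 on which most macrophages depend. Its intensities were 2151 and 1624 in SKO DMBA skin, 219 and 591 in WT DMBA tumours 1 and 2, 1574 in SKO acetone skin and 1109.6 in WT acetone skin. Both tumours lay below all 4 skin arrays, and SKO acetone skin nearly reached SKO DMBA skin 2. Adgre1 encodes F4/80, the surface protein by which mouse macrophages are usually recognized. It measured 3073 and 1763 in SKO DMBA skin, 179 and 851 in WT DMBA tumours 1 and 2, 1758 in SKO acetone skin and 1216 in WT acetone skin, in the same order. Lyve1, a hyaluronan receptor of some tissue macrophages and of lymphatic endothelium, measured 2209.6 and 1930.3 in SKO DMBA skin, 111 and 654 in WT DMBA tumours 1 and 2, 1091 in SKO acetone skin and 880.2 in WT acetone skin. It had the widest distance between SKO DMBA skin and tumours of all 26 genes, and the tumours did not overlap any skin array.

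Aif1, Ms4a6d and Ms4a7 behaved differently from Csf1r, Adgre1 and Lyve1 in the tumours. Aif1 encodes IBA1, an actin-binding protein of macrophages, and measured 1082 and 662 in SKO DMBA skin, 149 and 358 in WT DMBA tumours 1 and 2, 311 in SKO acetone skin and 304 in WT acetone skin. SKO DMBA skin was above every other array, and tumour 2 was above both acetone skin arrays. Ms4a6d and Ms4a7 encode membrane proteins of the tetraspanning MS4A family found on macrophages. Ms4a6d was at 2378 and 1817 in SKO DMBA skin, 486 and 1179 in WT DMBA tumours 1 and 2, 746 in SKO acetone skin and 858 in WT acetone skin. Ms4a7 was at 1209 and 761 in SKO DMBA skin, 226 and 547 in WT DMBA tumours 1 and 2, 355 in SKO acetone skin and 436 in WT acetone skin. For both genes tumour 2 again lay between SKO DMBA skin and acetone skin, and tumour 1 at the bottom.

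Among the Fc receptors, Fcgr1 binds single IgG molecules with high affinity, Fcgr3 binds immune complexes and activates, and Fcgr2b inhibits. Fcgr3 measured 1849 and 1046 in SKO DMBA skin, 136 and 378 in WT DMBA tumours 1 and 2, 747 in SKO acetone skin and 387 in WT acetone skin. On the normalized log2 scale SKO acetone skin was 1.20 above WT acetone skin, more than the 0.92 by which SKO DMBA skin exceeded SKO acetone skin. Fcgr1 was highest in SKO DMBA skin, at 207 and 167 in SKO DMBA skin, 77.4 and 97.7 in WT DMBA tumours 1 and 2, 112 in SKO acetone skin and 94.4 in WT acetone skin, and tumour 1 did not detect it. Fcgr2b ranged from 222 in tumour 1 to 1514 in SKO DMBA skin 1. Both SKO DMBA skin arrays exceeded both tumours for all 3 receptors, as they did for 35.8% of all genes. Fcgr2b and Fcgr3 are close relatives in sequence, so their probes may share signal.

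Fcer1g and Tyrobp are ITAM adaptors, the first for Fc receptors and the other, also called DAP12, for TREM2 among others. Tyrobp measured 1532 and 689 in SKO DMBA skin, 153 and 438 in WT DMBA tumours 1 and 2, 464 in SKO acetone skin and 432 in WT acetone skin. SKO DMBA skin 1 stood alone, and tumour 2 lay close to the acetone skin arrays. Fcer1g measured 3666 and 1961 in SKO DMBA skin, 522 and 1703 in WT DMBA tumours 1 and 2, 1429 in SKO acetone skin and 2146 in WT acetone skin, with tumour 2 just below SKO DMBA skin 2 and WT acetone skin. Trem2, a lipid-sensing receptor of macrophages, measured 552 and 284 in SKO DMBA skin, 103 and 186 in WT DMBA tumours 1 and 2, 331 in SKO acetone skin and 399 in WT acetone skin. It was one of 2 genes for which SKO DMBA skin 2 lay below SKO acetone skin, the other being Cd14.

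C1q starts the classical complement pathway once it binds antibody or dying cells. C1qb measured 5980.5 and 4156 in SKO DMBA skin, 377 and 1499.9 in WT DMBA tumours 1 and 2, 2171 in SKO acetone skin and 1734 in WT acetone skin. C1qc measured 4126 and 2449.6 in SKO DMBA skin, 240.3 and 977 in WT DMBA tumours 1 and 2, 1897 in SKO acetone skin and 1409 in WT acetone skin, and C1qa 1013 and 521 in SKO DMBA skin, 127 and 353 in WT DMBA tumours 1 and 2, 348 in SKO acetone skin and 364 in WT acetone skin. The 3 neighbouring genes all had both SKO DMBA skin arrays highest and tumour 1 lowest, while the place of tumour 2 differed. On the normalized log2 scale it was above both acetone skin arrays for C1qa, at 8.33 against 8.10 (SKO) and 8.08 (WT). For C1qb it was level with WT acetone skin at 10.59, and for C1qc, at 9.97, below SKO (10.80) and WT (10.25) acetone skin.

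Lyz1 and Lyz2 encode lysozyme, which cuts bacterial cell walls. Because the transcripts are near-identical, a probe of one may also take up the other, so the 2 genes are not separate evidence. Lyz1 measured 37639 and 21265 in SKO DMBA skin, 1497 and 12150.5 in WT DMBA tumours 1 and 2, 17185 in SKO acetone skin and 18299.8 in WT acetone skin. Lyz2 measured 10029 and 5152 in SKO DMBA skin, 352 and 2957 in WT DMBA tumours 1 and 2, 4329 in SKO acetone skin and 4464 in WT acetone skin. For both, tumour 1 was more than 10-fold below WT acetone skin on the normalized scale and tumour 2 less than 2-fold below.

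Ctss encodes the protease cathepsin S of antigen-presenting cells, and Mpeg1 perforin-2, a pore-forming protein of phagocytes. Ctss measured 1426 and 1231 in SKO DMBA skin, 244 and 563 in WT DMBA tumours 1 and 2, 709.9 in SKO acetone skin and 656 in WT acetone skin. Mpeg1 ranged from 326 in tumour 1 to 2726 in SKO DMBA skin 1. Gpnmb, a membrane glycoprotein of macrophage lysosomes that pigment cells also make, measured 5611 and 4458 in SKO DMBA skin, 569 and 2696 in WT DMBA tumours 1 and 2, 2092 in SKO acetone skin and 6889 in WT acetone skin. WT acetone skin was the highest array for Gpnmb and more than 2-fold above SKO acetone skin, which no other member showed.

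The pattern recognition and scavenger receptors and Cx3cr1 separated the arrays less. Cd14, the lipopolysaccharide co-receptor, measured 746 and 439 in SKO DMBA skin, 376 and 357 in WT DMBA tumours 1 and 2, 458 in SKO acetone skin and 338 in WT acetone skin. Clec7a encodes dectin-1, the receptor for fungal beta-glucan, and measured 672 and 412 in SKO DMBA skin, 211 and 546 in WT DMBA tumours 1 and 2, 283 in SKO acetone skin and 294 in WT acetone skin. Its tumour 2 value lay between those of the SKO DMBA skin arrays. Cx3cr1, the fractalkine receptor of monocytes and resident macrophages, measured 167 and 136 in SKO DMBA skin, 105 and 128 in WT DMBA tumours 1 and 2, 117 in SKO acetone skin and 104 in WT acetone skin, dim on every array. Msr1, a scavenger receptor, stayed between 88 and 109 on all arrays and was detected on 4 of them. Against the lowest level measurable in SKO acetone skin, Msr1 was at least 1.03-fold higher in the SKO DMBA skin mean and 1.05-fold in WT acetone skin. SKO DMBA skin 1 alone, at 5.15 log2 units for Msr1, lay under that limit of 5.25. For the WT DMBA tumours no such bound is given, because only tumour 2 detected it, at 5.87 log2 units.

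SKO DMBA skin was compared with SKO acetone skin to see how skin without STING differed after repeated DMBA. All 26 fitted differences were positive, as were 6001 of all 11999 genes, with a median of 0.93 log2 units against 0.00 over all genes. Over 2-fold differences were found for 10 of 26 genes, against 4.82% of all genes. Both SKO DMBA skin arrays lay above the SKO acetone skin array for 24 of 26 genes, against 38.6% of all genes. The leading surface genes were Aif1 at 1.61 (SE 0.61, limma adjusted p = 0.649), Ms4a7 at 1.59 (SE 0.57, limma adjusted p = 0.627) and Ms4a6d at 1.57 (SE 0.52, limma adjusted p = 0.602), n = 2 and 1. Gpnmb was at 1.33, C1qb at 1.27, Fcgr1 at 1.22 and Clec7a at 1.03. The smallest differences were those of Csf1r (0.25), Trem2 (0.26) and Cd14 (0.32).

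No macrophage gene passed the test in SKO DMBA skin against SKO acetone skin. Of all genes, 0% had a limma adjusted p under 0.05 in this comparison. The test shares 1 spread over both groups of 2, and the tumours are not part of the comparison. They varied more between arrays than SKO DMBA skin for all members except Trem2, Cd14 and Cx3cr1. For Lyve1 the standard deviation was 2.06 in the tumours and 0.059 in SKO DMBA skin. With only the groups of this comparison fitted, 1.19% of all genes passed as higher and 0.325% as lower. No member passed, which at such shares says little about the members. At an unadjusted limma p under 0.05, Fcgr1, Ms4a6d and Ms4a7 were higher, 3 of 26 against 3.98% of all genes, and 0 were lower, against 3.78%. The SKO DMBA skin arrays also differed from each other, the second lying above the first for 1 of 26 genes, against 46.5% of all genes, with a median of -0.63 against -0.03 over all genes. Over the first array alone the median difference from SKO acetone skin was 1.21, with 18 genes over 2-fold higher (5.90% of all genes), and over the second it was 0.59, with 6 (4.88%).

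How a tumour differs from solvent-treated skin of the same genotype was asked by setting each WT DMBA tumour against WT acetone skin, and the tumours gave different answers. In tumour 1, 4 of 26 macrophage genes were above WT acetone skin, against 49.3% of all genes, and 22 were below it. Of these, 17 were below by over 2-fold, against 17.8% of all genes. The median difference was -1.27. Lyz1 was at -3.56, Lyz2 at -3.38, Gpnmb at -3.33, Lyve1 at -3.07, Adgre1 at -2.48 and C1qc at -2.19 log2 units. Cd14 (0.83), Cx3cr1 (0.76), Msr1 (0.22) and Clec7a (0.13) were above it.

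In tumour 2, 16 of 26 genes were above WT acetone skin, against 49.1% of all genes, and 10 below, with a median of 0.18. That median turned to -0.04 once arrays were only set to equal medians (all genes -0.20) and to -0.10 when they were not normalized to each other (all genes -0.25). Clec7a alone was over 2-fold higher (1.35), where 6.44% of all genes were, and Gpnmb (-1.26) and Trem2 (-1.07) were over 2-fold lower, where 11.2% were. The genes farthest apart between tumour 2 and tumour 1 were Lyz2 (2.92), Lyve1 (2.92), Lyz1 (2.84) and Adgre1 (2.22). Cd14 alone was lower in tumour 2, at -0.41. These are differences between single arrays and have no test.

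Both tumours together were below WT acetone skin for 10 of 26 genes, against 40.9% of all genes, and above it for Cd14, Clec7a, Cx3cr1 and Msr1, 4 genes against 39.4%. The count below was 13 with equal medians (55.7% of all genes) and 15 without normalization (61.9%). Both lay below all 4 skin arrays for 8 genes (Adgre1, C1qc, Csf1r, Laptm5, Lyve1, Lyz1, Lyz2 and Trem2), against 27.2% of all genes. Msr1 was the 1 gene for which both lay above all 4, against 26.1%, but tumour 1 and SKO acetone skin did not detect it, and the position was lost with equal medians or without normalization between arrays. With the tumours averaged, 6 of 26 fitted differences were above 0, where 49.4% of all genes were, and the median was -0.50. Among the 6, Ms4a6d and Ms4a7 were below 0 with equal medians (-0.092 and -0.28). Gpnmb had the lowest value, -2.30 (SE 0.89, limma adjusted p = 0.246), and Cx3cr1 the highest, 0.79 (SE 0.30, limma adjusted p = 0.237), n = 2 and 1. Limma called 0 members and 0% of all genes. At an unadjusted p under 0.05, 0 members were higher, against 8.68% of all genes, and 0 lower, against 12.5%.

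**Figure D2:**
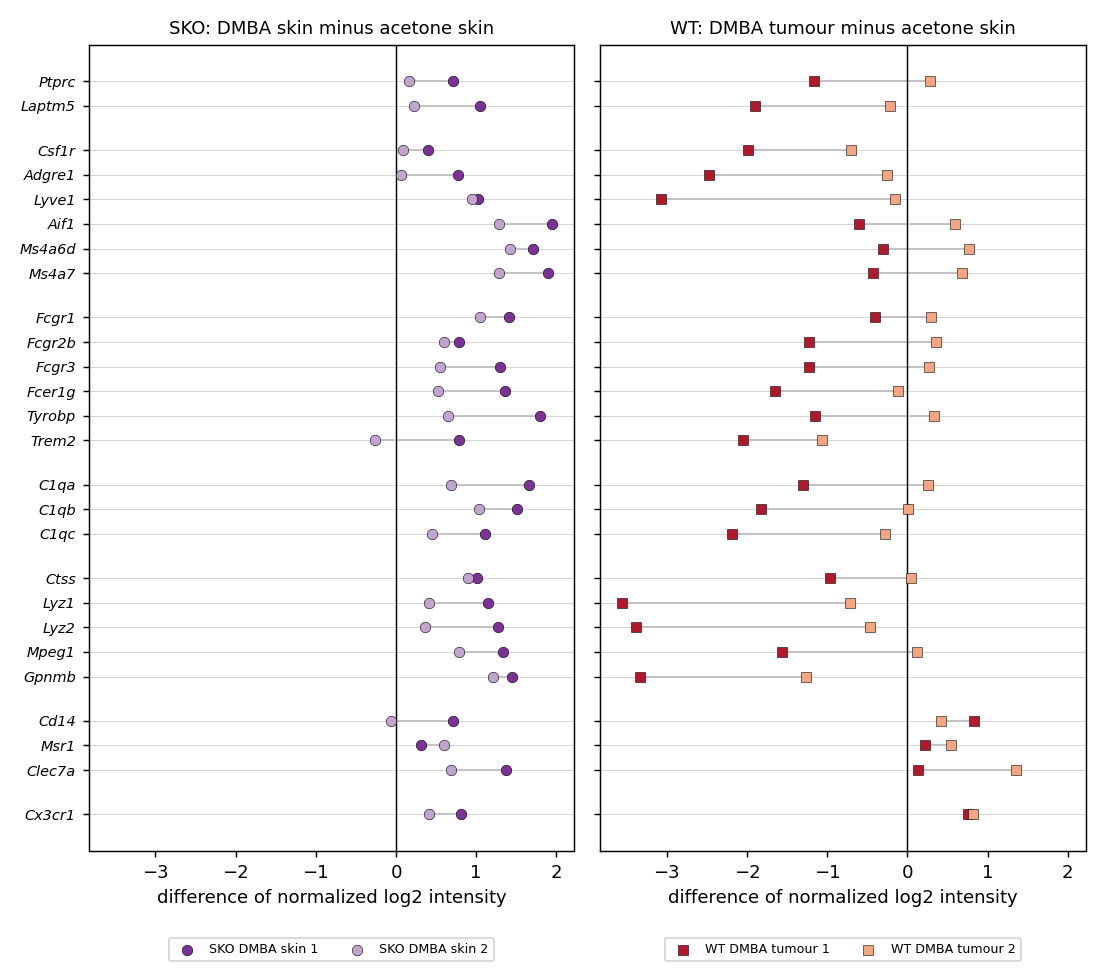
Difference in normalized log2 intensity (horizontal axes) of each SKO DMBA skin array from SKO acetone skin (left panel) and of each WT DMBA tumour from WT acetone skin (right panel), with 1 row per gene and a grey line joining the arrays. In the left panel nearly all points lie right of 0, while in the right panel tumour 1 lies left of 0 for 22 genes and tumour 2 for 10.

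In a fit that left out tumour 2, only the SKO DMBA skin pair gave a spread, and the lone tumour was taken to vary like that pair. Limma then called 12 members lower in tumour 1 than in WT acetone skin, against 14.4% of all genes. They were Adgre1, C1qb, C1qc, Csf1r, Fcgr2b, Gpnmb, Laptm5, Lyve1, Lyz1, Lyz2, Mpeg1 and Trem2. In the comparison of tumour with WT acetone skin, members were called only when tumour 2 was left out. Without tumour 1 their median difference was 0.18 log2 units, against -0.01 over all genes. Few of all genes were called there, and no gene was without either SKO DMBA skin array. The lack of called members in those fits thus says little about them.

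SKO DMBA skin held higher levels of most macrophage genes than the WT DMBA tumours. The fitted difference was above 0 for 25 of 26 genes, where 51.4% of all genes were, and over 2-fold for 22, where 14.7% were. The median was 1.67 log2 units against 0.02 over all genes. Lyve1 led with 3.05 (SE 1.00, limma adjusted p = 0.145), then Lyz2 with 2.71, Lyz1 with 2.70, Fcgr3 with 2.60, C1qb with 2.59, C1qc with 2.56 and Adgre1 with 2.46. At the other end were Cd14 (0.34), Clec7a (0.33), Cx3cr1 (0.12) and Msr1 (-0.41).

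Both SKO DMBA skin arrays lay above both tumours for 22 of 26 genes, against 35.8% of all genes, and below both for Msr1, against 31.5%. Against tumour 1 alone they were above for 23 of 26 genes (44.8% of all genes) and against tumour 2 alone also for 23 (44.5%), so the direction did not rest on tumour 1. The sizes differed between the tumours. The SKO DMBA skin mean exceeded tumour 1 by over 2-fold for 22 genes (18.5% of all genes), with a median of 2.43, and tumour 2 for 13 (10.3%), with a median of 1.03.

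Limma called 0 members and 0% of all genes between SKO DMBA skin and WT DMBA tumours. The lowest adjusted p-values among members were those of Fcgr1, 1.69 (SE 0.33, limma adjusted p = 0.089), Csf1r, 2.24 (SE 0.49, limma adjusted p = 0.0969), and Fcgr3, 2.60 (SE 0.59, limma adjusted p = 0.0997), n = 2 and 2. At an unadjusted p under 0.05, 14 of 26 members were higher, against 17.1% of all genes, and 0 were lower, against 12.4%. Without tumour 1, with the spread from the SKO DMBA skin pair alone, limma called C1qb (1.67, adjusted p = 0.0403), Csf1r (1.60, adjusted p = 0.0371), Fcgr3 (1.86, adjusted p = 0.0493) and Lyve1 (1.59, adjusted p = 0.0321) higher than in tumour 2, 4 of 26 against 4.57% of all genes. Without tumour 2, it called 22 members higher than in tumour 1, against 18.2%.

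**Figure D3:**
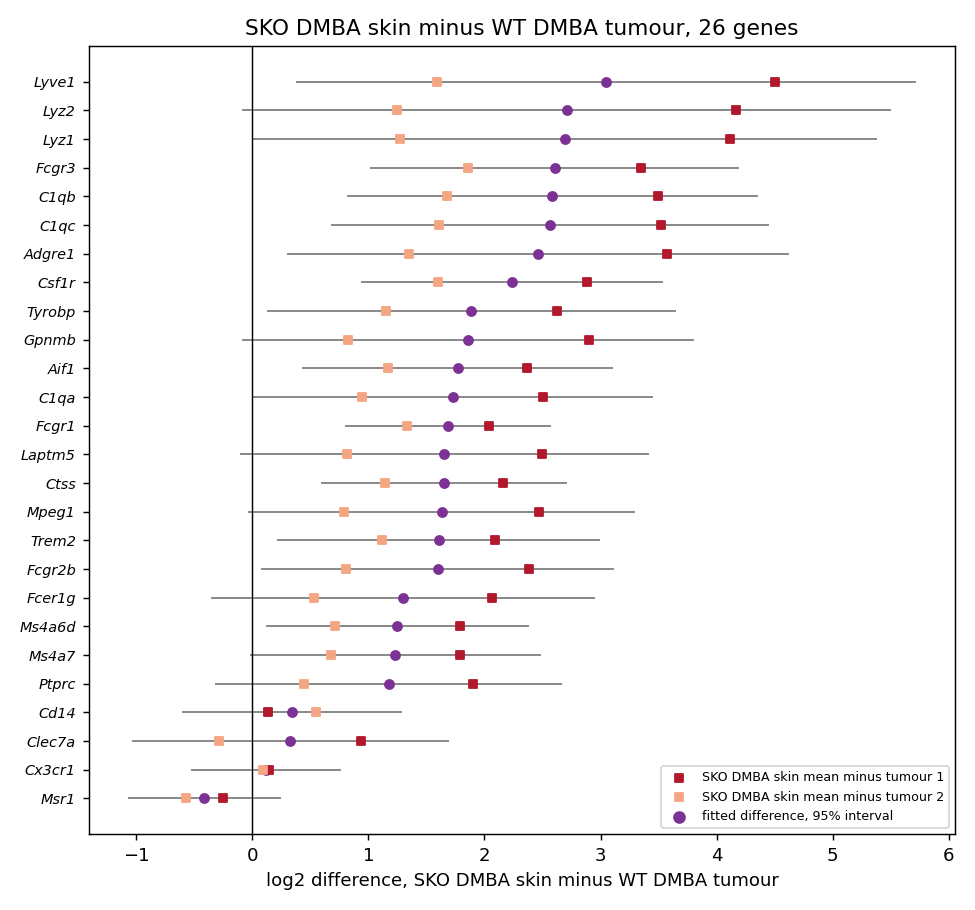
Log2 difference between SKO DMBA skin and WT DMBA tumours (horizontal axis) for each of the 26 genes, ordered by size, as limma's fitted value with its 95% interval and as the SKO DMBA skin mean minus each tumour alone. The squares of tumour 2 lie nearer to 0 than those of tumour 1 for all genes except Cd14 and Msr1, and Msr1 is the 1 gene with a fitted value below 0.

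The DMBA response was set against itself between genotypes, as SKO DMBA skin minus SKO acetone skin less WT DMBA tumour minus WT acetone skin. The difference was above 0 for 24 of 26 genes, where 51.3% of all genes were, with a median of 1.62. Gpnmb was the largest at 3.62 (SE 1.26, limma adjusted p = 0.605), and Cd14 the lowest at -0.30, which was above 0 with equal medians (0.10) and without normalization (0.23). For 9 genes both SKO DMBA skin arrays were above SKO acetone skin while both tumours were below WT acetone skin, against 10.4% of all genes. Limma called 0 members and 0% of all genes, with 1 member (Gpnmb) higher at an unadjusted p under 0.05, against 4.54%, and 0 lower, against 3.47%. In fits that left out an array, a lack of called members says little where few of all genes were called. Limma called few of all genes without tumour 1, and no gene without either SKO DMBA skin array. Without tumour 2 it called 11 members higher (Adgre1, C1qb, C1qc, Csf1r, Ctss, Fcgr2b, Gpnmb, Lyve1, Lyz1, Lyz2 and Mpeg1), against 7.11% of all genes, and 0 without tumour 1 or without either SKO DMBA skin array.

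SKO acetone skin and WT acetone skin, with 1 array each and no test, differed by under 2-fold for most macrophage genes, as for most of all genes. The median difference was 0.20 against 0.02 over all genes, with 16 genes higher in SKO acetone skin, against 52.1% of all genes, and 10 lower. Fcgr3 alone was over 2-fold higher (1.20), where 2.34% of all genes were, and Gpnmb alone over 2-fold lower (-1.76), where 3.49% were. Adgre1 (0.68), Csf1r (0.65) and Cd14 (0.64) followed on the higher side, and Fcer1g (-0.53) on the lower.

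For 11 members more than 1 probe was detected, 30 probes in all. Between SKO DMBA skin and WT DMBA tumours all probes of a gene had 1 direction for 10 of the 11, the exception being Fcgr2b, which has a probe detected on 1 array and near 0. The further Lyz1 probes gave 3.26 and 4.01 and a further Lyz2 probe detected on all 6 arrays 2.58. In SKO DMBA skin against SKO acetone skin the probes of 7 genes had 1 direction, and those of Adgre1, Csf1r, Gpnmb and Ptprc disagreed. The second Csf1r probe, detected on 5 arrays, was at -0.26 there. In the tumours against WT acetone skin the probes of Aif1 and Ms4a7 disagreed, and in the difference of responses those of Adgre1.

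Other genes of macrophage biology were taken from lists of their own, and 0 of them were called in any of the 4 comparisons. For SKO DMBA skin against SKO acetone skin, the tumours against WT acetone skin and SKO DMBA skin against the tumours, ITAM signalling and phagocytosis genes (19 tested) had 17, 4 and 19 positive differences, with medians of 0.79, -0.58 and 1.40 log2 units. The last comparison shares the tumour arrays with the second and the SKO DMBA skin arrays with the first. Rac2, a GTPase of the phagocyte oxidase, led in SKO DMBA skin at 1.38, and Mertk, a receptor for dying cells, was lowest at -0.22. Pik3cg, a kinase of white blood cells, differed most between SKO DMBA skin and the tumours at 2.50, and the signalling phospholipase Plcg2 least at 0.17. In the tumours against WT acetone skin, Mertk was lowest at -1.66. The Src family kinase gene Fgr was not detected in either of these groups.

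Monocyte chemokine genes (11 tested) had 11, 6 and 8 positive differences in the same order of comparisons, with medians of 1.51, 0.29 and 1.64 log2 units. In SKO DMBA skin against SKO acetone skin Ccl4 had the largest fitted value, 2.75, and Cx3cl1, the ligand of Cx3cr1, the smallest, 0.19. SKO acetone skin did not detect Ccl4, so SKO DMBA skin was at least 4.67-fold higher there (limma adjusted p = 0.215). The genes differed in the tumours. Ccl8 measured 15351 and 9925 in SKO DMBA skin, 402 and 5125 in WT DMBA tumours 1 and 2, 4135 in SKO acetone skin and 3617 in WT acetone skin, and Ccl9 was at -1.63 in the tumours against WT acetone skin and 2.94 in SKO DMBA skin against the tumours. Ccl4 measured 249 and 254 in SKO DMBA skin, 708 and 832 in WT DMBA tumours 1 and 2, 86.3 in SKO acetone skin and 286 in WT acetone skin. Both tumours were above every skin array for Ccl4, and SKO acetone skin was the lowest array.

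Genes of CSF1 and CSF2 signalling and macrophage transcription factors (14 tested) had 9, 4 and 11 positive differences, with medians of 0.21, -0.48 and 0.99 log2 units. Il34, the second ligand of Csf1r, was at -0.93 in SKO DMBA skin against SKO acetone skin. The receptor gene Csf3r, which also stands in the neutrophil list, was at 1.05 there. The transcription factor gene Zeb2 was at 2.53 and Klf4 at -0.56 in SKO DMBA skin against the tumours. Nr1h3, the sterol receptor LXR alpha, was at -2.73 in the tumours against WT acetone skin and Klf4 at 0.55. Lysosomal genes (17 tested) had 14, 5 and 13 positive differences and medians of 0.31, -0.46 and 0.63. Among them Ctsc led in SKO DMBA skin (1.73) with Cd63 lowest (-0.22). Ctsd was highest (1.20) and Ctsk lowest (-2.15) in the tumours against WT acetone skin, and Ctsz (1.65) and Ctsd (-0.73) marked the ends in SKO DMBA skin against the tumours. Complement genes other than C1q (8 tested) had 4, 1 and 7 positive differences and medians of -0.03, -2.01 and 2.77. Vsig4, a complement receptor of resident macrophages, was at 1.29 and C1s1 at -0.86 in SKO DMBA skin against SKO acetone skin, and C1s1 at -0.23 against the tumours. Neither tumour detected Vsig4, and SKO DMBA skin was at least 7.44-fold higher. The C1 inhibitor gene Serping1 was at -3.33 in the tumours against WT acetone skin, and neither group detected the integrin gene Itgax.

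Markers of other tissue compartments differed between the same arrays. Skeletal muscle genes (12 of 12 detected on some array) summed to 250700 and 180800 in SKO DMBA skin, 476.9 and 49870 in WT DMBA tumours 1 and 2, 321200 in SKO acetone skin and 258200 in WT acetone skin, and tumour 1 detected 2 of them. Adipocyte genes (10 tested of 12) summed to 32860 and 24330 in SKO DMBA skin, 728.8 and 8102 in the tumours, 87570 in SKO acetone skin and 79430 in WT acetone skin. Fibroblast genes (12 of 12) summed to 49180 and 58140 in SKO DMBA skin, 9847 and 28190 in the tumours, 64230 in SKO acetone skin and 74370 in WT acetone skin. Keratinocyte genes (13 of 14) ran the other way, with 125500 and 136800 in SKO DMBA skin, 231200 and 220700 in the tumours, 115200 in SKO acetone skin and 129800 in WT acetone skin. Tumour 1, the lowest array for the macrophage genes, was thus also the lowest for muscle, fat and fibroblast genes and the highest for keratinocyte genes, and the part of tissue make-up in the macrophage values was not tested. In both SKO DMBA skin arrays the muscle, fat and fibroblast sums were below those of SKO acetone skin, while the macrophage sum was above it in both.

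**Figure D4:**
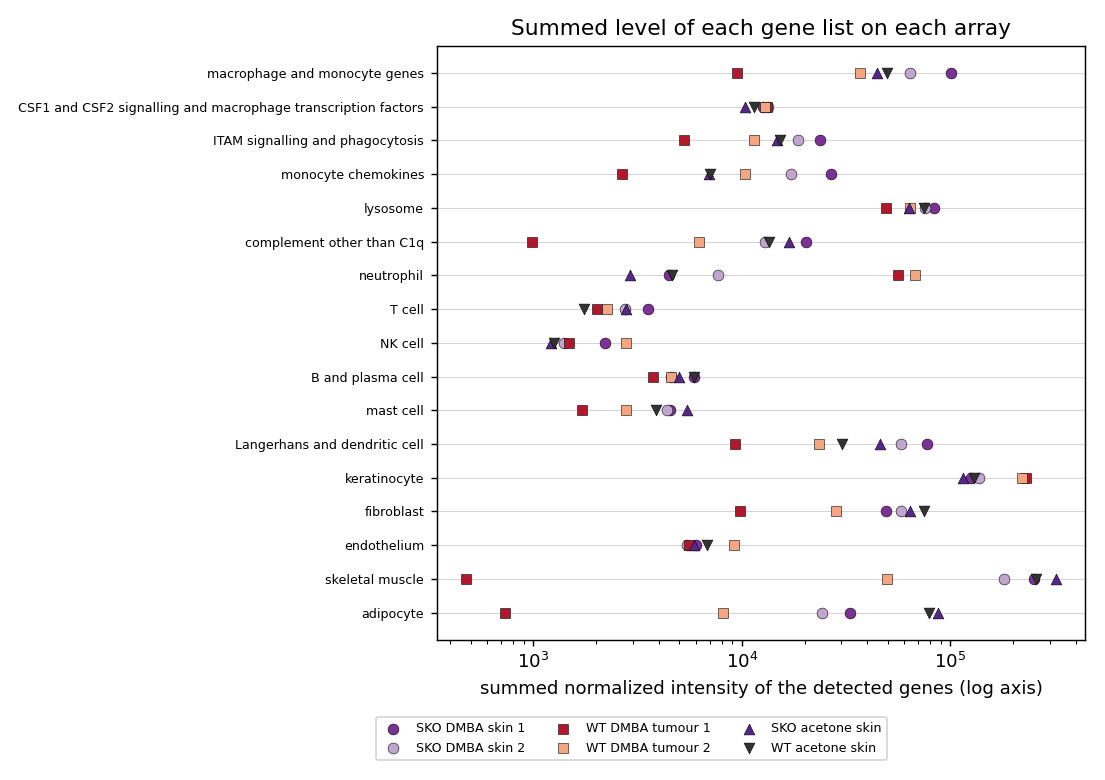
Summed normalized intensity (horizontal axis, log scale) of the detected genes of the macrophage set and of 16 other lists on each of the 6 arrays. The macrophage sum is lowest in tumour 1 at 9436 and highest in SKO DMBA skin 1 at 101000, and the muscle, adipocyte and fibroblast sums are lowest in tumour 1 too. A sum is weighted to the brightest genes of its list.

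Among other immune cells, Langerhans and dendritic cell genes (10 tested of 14) summed to 77690 and 58140 in SKO DMBA skin, 9301 and 23510 in the tumours, 46130 in SKO acetone skin and 30350 in WT acetone skin, in nearly the order of the macrophage genes. Neutrophil genes (11 of 14) did not follow it, with 4498 and 7709 in SKO DMBA skin, 56260 and 67350 in the tumours, 2903 in SKO acetone skin and 4604 in WT acetone skin. Most of the tumour sums came from S100a8 and S100a9, which keratinocytes of inflamed skin also make. S100a8 measured 2339 and 4478 in SKO DMBA skin, 38801 and 42983 in WT DMBA tumours 1 and 2, 624 in SKO acetone skin and 2376 in WT acetone skin. Between SKO DMBA skin and the tumours S100a9 was at -4.27 and S100a8 at -3.71 log2 units, while the median of the 11 neutrophil genes was -0.65, with 3 positive, Il1r2 the highest at 1.73. Ly6g had no probe named to it here. Mast cell genes (9 of 9) summed to 4530 and 4396 in SKO DMBA skin, 1711 and 2782 in the tumours, 5481 in SKO acetone skin and 3887 in WT acetone skin. The sums lay between 1751 and 3567 for T cell genes (6 of 14), between 1219 and 2778 for NK cell genes (5 of 9), between 3743 and 5912 for B and plasma cell genes (4 of 10) and between 5477 and 9185 for endothelial genes (12 of 13). In SKO DMBA skin against the tumours, T cell genes had 5 of 6 positive differences with a median of 1.47 and B and plasma cell genes 4 of 4 with 1.44. Langerhans and dendritic cell genes had 9 of 10 with 1.55, NK cell genes 3 of 5 with 0.70 and mast cell genes 7 of 9 with 1.32. The macrophage median was 1.67. In SKO DMBA skin against SKO acetone skin the T and B cell medians were 0.21 and 0.14, against 0.93 for macrophage genes. For Langerhans and dendritic cell genes that median was 0.61. In the difference of responses the T and B cell medians were 0.19 and 0.50, against 1.62. For T and B cell genes the likeness thus held in 1 comparison only. Langerhans and dendritic cell genes had a median of 1.40 there (9 of 10 positive) and mast cell genes 1.13 (6 of 9). NK cell genes were at -0.15 (2 of 5), and fibroblast genes at 2.01 (11 of 12), above the macrophage median. The defining genes Cd4, Cd8a, Ncr1 and Ms4a1 were not detected on any array. The part of these cells in the macrophage values was not tested.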

How the data were processed

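Total RNA of 6 samples was measured on one-colour Illumina arrays. Per the file headers, the authors deposited a linear probe intensity for 45281 probes and a detection p-value beside it. The deposited detection p-value rises with the signal (Spearman at least 0.975), so 1 minus it was used. The authors' processed matrix of log2 values was, from the values, quantile-normalized signal without background correction, centred on each probe's median (mean absolute difference at most 0.00125). Its column medians were -0.00172 and -0.00292 in SKO DMBA skin, 0.0122 and 6.82e-05 in the tumours, -0.000698 in SKO acetone skin and -0.00263 in WT acetone skin. It served as an alternative. For scanner and software, the sources used here give no name.

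Background correction, quantile normalization and the log2 step were done with neqc (limma 3.58.1, R 4.3.3, offset 16). In the platform annotation 34885 probes had 1 gene, 18 had several and 10378 had none named. Symbols of 34807 probes were updated through RefSeq (GRCm38.p6). The 4 group means were fitted with lmFit and eBayes to 11999 genes, with 2 residual and 2.43 prior degrees of freedom, which treats each lone acetone array as varying like the groups of 2. The threshold was an adjusted p of 0.05 (Benjamini-Hochberg over all genes), and limma's moderated SE is given. The fit was checked on simulated data in which all arrays of a gene shared 1 spread. That check could not show whether the lone arrays, or both groups of 2, vary alike. The labels name no separate animals, so a p-value here rests on the spread between samples, and that spread may be technical. Precision is limited by the few arrays. Replicates were numbered by accession and are unpaired.

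The members and the 16 other lists were chosen with earlier results of these data known. By rule, values on every array are given for members with the largest difference of their role in a comparison or between the tumours, and list genes at either end. The further members shown on every array were added after their values were seen. Alternatives were background correction, normalization, offset, detection filter, probe choice, the authors' matrix, the groups fitted and leaving out arrays. Leaving out arrays from the counts of arrays that do not overlap was chosen after seeing the data.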

Additional observations from a re-analysis of the deposited data

Results flagged for a closer look

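For 9 genes every SKO DMBA skin array was above SKO acetone skin and every WT DMBA tumour below WT acetone skin, against 10.4% of all genes. The difference of the responses was 3.62 for Gpnmb, 2.91 for Lyz1, 2.74 for Lyz2, 2.60 for Lyve1, 2.02 for C1qc, 1.82 for Fcer1g, 1.79 for Adgre1, 1.69 for Laptm5 and 1.59 for Csf1r, in log2 units. Limma's test of that difference gave adjusted p-values between 0.605 for Gpnmb and 0.688 for Adgre1, so it passed for 0 of the 9. Tumour 2 was within 0.30 log2 units of WT acetone skin for Adgre1, Lyve1, Laptm5, Fcer1g and C1qc (-0.25, -0.16, -0.22, -0.11 and -0.28). Lyz1 and Lyz2 may share signal.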

How the results depend on the processing

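Over every alternative other than leaving out an array, the members' median stayed between 0.82 and 0.95 for SKO DMBA skin against SKO acetone skin, between -1.05 and -0.39 for WT DMBA tumours against WT acetone skin, between 1.52 and 2.04 for SKO DMBA skin against WT DMBA tumours and between 1.41 and 2.14 for the difference of responses, and 0 members were called. Of all genes, at most 1.19% were called higher and 1.12% lower under these alternatives. Without normalization between arrays the median of all genes was -0.39 for tumours against WT acetone skin and 0.33 for SKO DMBA skin against tumours. There the members' median was -2.06 in tumour 1 (all genes -0.53) and -0.10 in tumour 2 (all genes -0.25), and with equal medians -1.88 (-0.35) and -0.04 (-0.20), so the sign of tumour 2 turned while it stayed above that of all genes. Msr1 no longer stood above all 4 skin arrays in both tumours (0 genes) with equal medians or without normalization, nor with detection on all 6 arrays, which removes it.

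Single genes near 0 turned. Tumours minus WT acetone skin was 0.018 for Aif1 with normexp, 0.019 without background correction, 0.014 with an offset of 50, 0.093 as the mean of probes and 0.020 in the authors' matrix. Ms4a6d was -0.092 and Ms4a7 -0.28 with equal medians, and -0.21 and -0.39 without normalization, where Msr1 was -0.027. Ms4a7 was -0.053 as the mean of probes, where Csf1r in SKO DMBA skin minus SKO acetone skin was -0.0057. The difference of responses was 0.10 for Cd14 and 0.32 for Cx3cr1 with equal medians, and 0.23 and 0.45 without normalization. The cause was not tested.

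Leaving out 1 array at a time, the members' median ranged from -1.27 to 0.18 for tumours minus WT acetone skin, from 1.03 to 2.43 for SKO DMBA skin minus tumours and from 0.91 to 2.27 for the difference of responses. Called members ranged from 0 to 12 lower, 0 to 22 higher and 0 to 11 higher in the same order, and calls came only without a tumour, when the residual spread comes from the SKO DMBA skin pair. Tumours minus WT acetone skin crossed 0 for Ptprc (-1.17 to 0.29), Aif1 (-0.60 to 0.60), Fcgr1 (-0.41 to 0.30), Fcgr2b (-1.22 to 0.36), Fcgr3 (-1.23 to 0.26), Tyrobp (-1.15 to 0.33), C1qa (-1.30 to 0.25), C1qb (-1.82 to 0.0025), Ctss (-0.97 to 0.049), Mpeg1 (-1.56 to 0.12), Ms4a6d (-0.30 to 0.77) and Ms4a7 (-0.42 to 0.68). SKO DMBA skin minus SKO acetone skin crossed it for Trem2 (-0.26 to 0.79) and Cd14 (-0.064 to 0.70). SKO DMBA skin minus tumours crossed it for Clec7a (-0.28 to 0.94), Cd14 (-0.042 to 0.73) and Cx3cr1 (-0.083 to 0.32), and the difference of responses for Msr1 (-0.086 to 0.24), Clec7a (-0.32 to 0.90), Cd14 (-0.68 to 0.085) and Cx3cr1 (-0.38 to 0.027). With 2 arrays or 1 a group, small differences and dim probes such as Msr1, Fcgr1, Ptprc and Cx3cr1 are the least certain. No paired analysis was possible because the labels give no shared replicate numbers.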
